A study of Rattus norvegicus with 16 samples.

Results

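Rab GTPases and the TBC1D proteins that regulate them were measured in the diencephalon of 16 male Sprague-Dawley rats, with 1 expression array for each rat. The genes were taken from the array's annotation by symbol: every gene named Rab with a number (56 genes) and every gene named Tbc1d (26 genes), 82 of the 14217 genes that have a probe set of their own. Where a gene had several probe sets, the one with the highest mean log2 signal over the 16 arrays stood for it. The diencephalon is the part of the forebrain that holds the thalamus and the hypothalamus, and the study asked how dietary zinc alters feeding behaviour and gene expression there.

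All rats started their diets at 5 weeks of age. The zinc-deficient group (ZD) was free to eat a diet holding 0.6 mg of zinc per kg for 10 days, and the pair-fed group (PF) was given matched amounts of a diet holding 30 mg of zinc per kg over the same 10 days. The recovery group (ZR) had the deficient diet for 10 days and then 6 days on the 30 mg diet, in a fixed daily ration of 13 g. Its control group (ZRPF) was pair-fed the 30 mg diet for 10 days and then had the same 6 days of the fixed ration. Every group was offered 300 mM NaCl beside water during the first diet period, and ZR and ZRPF rats were offered it again during recovery. Each group is represented by 4 rats that the submitters picked as average for weight, plasma zinc and salt preference, after 3 ZR rats and 1 ZRPF rat had been removed for their salt preference, so the spread within a group is that of picked animals. No group ate the zinc-sufficient diet freely once the experiments had begun, and ZD was the only group on the deficient diet when the brains were taken.

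Rab proteins are small GTPases that mark membranes and steer vesicles. In the GTP-bound form they sit on a membrane and recruit effectors such as tethers and motors, and in the GDP-bound form they are drawn off by GDI. Exchange factors load GTP, and proteins with a TBC domain speed its hydrolysis and so switch their Rab off. In neurons RAB3 proteins act on synaptic vesicles, RAB5 proteins on early endosomes, RAB4 and RAB11 on recycling endosomes, RAB7 on late endosomes and lysosomes, and RAB1, RAB2 and RAB6 on traffic between the endoplasmic reticulum and the Golgi.

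The deposited value is a linear signal intensity for each probe set, used here as log2. Arrays of one group correlated at 0.974 to 0.987 over the 15521 probe sets above a filter on low signals. Over the same probe sets, the first principal component (35.1% of the variance) separated the 8 arrays of the 10-day experiment from the 8 of the 16-day experiment. The experiments also differed in a sign of RNA quality, the log2 excess of beta-actin's 3′ control probe set over its 5′ one. It was 1.37 to 1.73 on the 10-day arrays and 2.05 to 2.48 on the 16-day arrays. For the control probe sets of GAPDH (0.048 to 0.154 and 0.146 to 0.300) and hexokinase (0.49 to 1.42 and 0.82 to 1.44) this excess overlapped between the experiments. Of the tissue's own markers, 7 of 7 for thalamus and 8 of 9 for hypothalamus lay above the filter on low signals (*Pomc* lay below it), as did 0 of 4 for cortex and hippocampus. Choroid plexus, tissue that a dissection can carry along, varied most, with a summed marker signal of 869 to 1977 in PF, 1546 to 11373 in ZD, 1110 to 24052 in ZRPF and 961 to 22487 in ZR. In RNA from whole tissue, fewer cells of a type and less RNA per cell cannot be told apart.

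Of the 82 genes, 66 passed the filter (46 Rab and 20 Tbc1d genes), which asked for a mean log2 signal of at least 7.35, the median over all probe sets. The other 16 lay below it and were not tested: *Rab3d*, *Rab17*, *Rab19*, *Rab20*, *Rab25*, *Rab27a*, *Rab32*, *Rab38*, *Rab39a*, *Rab43*, *Tbc1d2*, *Tbc1d10c*, *Tbc1d12*, *Tbc1d25*, *Tbc1d30* and *Tbc1d32*. RAB17 and RAB25 are known from epithelia, and RAB27A, RAB32 and RAB38 from pigment and blood cells. The brightest probe sets were those of *Rab6a* (mean log2 signal 13.28), *Rab1a* (13.01), *Rab2a* (13.00), *Rab6b* (12.98) and *Rab3a* (12.33), and the dimmest tested ones those of *Rab7b* (7.66), *Tbc1d8b* (7.79) and *Tbc1d7* (7.80). Brightness depends on each probe set, so these values do not order the genes by amount of transcript. *Tbc1d24* was not analysed here.

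What zinc deficiency did beyond reduced intake is addressed by ZD against PF. None of the 66 genes passed the threshold, an adjusted p under 0.05 (limma, Benjamini-Hochberg over 15521 probe sets). Over all 9278 genes tested, 0% passed. The median log2 difference, ZD minus PF, was 0.02 over the 66 and 0.02 over all genes, with 36 of the 66 above 0. An unadjusted p under 0.05 was reached by 4 of the 66 (6.06%, against 7.94% of all genes), and the ZD and PF arrays did not overlap for 1 of the 66 (against 4.35% of all genes).

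That 1 gene was *Tbc1d13*, which encodes a GTPase-activating protein described for RAB35, a Rab of endosomal recycling. Its log2 signals were 9.26, 9.21, 9.20 and 9.04 in PF and 9.74, 9.66, 9.73 and 9.81 in ZD. Every zinc-deficient rat lay above every pair-fed one. The means were 9.18 ± 0.10 (SD, n = 4) in PF and 9.74 ± 0.06 in ZD, a difference of 0.56 ± 0.11 (SE) or 1.47-fold, with an unadjusted p of 0.000124 and an adjusted p of 0.151, which misses the threshold. Over the 26 other ways of processing the data that could be run for it, the difference was 0.51 to 0.58 and its adjusted p 0.0520 to 0.428. In the 16-day experiment the log2 signals were 9.81, 9.19, 9.80 and 9.56 in ZRPF and 9.30, 9.52, 9.51 and 9.24 in ZR. These groups overlapped, ZRPF held both the highest and the lowest rat, and the difference ZR minus ZRPF was -0.20 ± 0.11 (adjusted p 0.927). The zinc effect in the 16-day experiment minus that in the 10-day experiment was -0.76 ± 0.16 (adjusted p 0.520). That test passed when the ZRPF 4 array was left out, with a difference of -0.89 and an adjusted p of 0.0349.

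Marker lists of several cell types shifted between PF and ZD too, in both directions and with no marker past the threshold. The 8 tested meningeal and mural markers were all higher on average in ZD than in PF, with summed signals of 3795 to 4590 in PF and 4386 to 6792 in ZD. The same held for 7 of 7 endothelial markers (5928 to 6764 in PF, 6323 to 8118 in ZD), 5 of 5 ependymal markers (2375 to 2858 and 2985 to 3553), 5 of 5 tested choroid plexus markers and 4 of 4 tested microglial markers (2245 to 2891 and 2555 to 3302). The tissue's own thalamic markers were the other way, with 0 of 7 higher on average in ZD and sums of 21754 to 24746 in PF and 18686 to 22582 in ZD. Few were higher among astrocyte (1 of 6), oligodendrocyte (2 of 7) and neuron markers (2 of 6). Their part in the *Tbc1d13* difference was not tested.

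The next smallest p-values in ZD against PF belonged to genes of several routes. *Tbc1d23*, a Golgi tether of endosome-derived vesicles, had 10.62, 10.42, 10.44 and 10.33 in PF and 10.14, 10.37, 10.12 and 10.02 in ZD, a difference of -0.29 ± 0.10 (adjusted p 0.455). All but 1 ZD rat lay below every PF rat. *Rab7b*, a Rab of transport between late endosomes and the Golgi, had 7.80, 7.29, 7.90 and 6.97 in PF and 8.18, 8.08, 7.95 and 7.57 in ZD (0.45 ± 0.19, adjusted p 0.580), with overlapping groups. *Rab34*, linked to macropinocytosis and cilium formation, lay at 9.35 to 9.65 among PF rats and at 9.53 to 9.75 among ZD rats (0.20 ± 0.10, adjusted p 0.634). *Tbc1d22al* lay at 9.50 to 9.60 among PF rats and at 9.57 to 9.81 among ZD rats (0.14 ± 0.08, adjusted p 0.705).

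*Rab27b*, whose product docks secretory granules at the plasma membrane, had the widest range over the 16 arrays of the 66 tested genes. Its log2 signals were 8.81, 8.92, 8.71 and 7.60 in PF and 8.36, 9.03, 6.38 and 6.28 in ZD. The arrays ZD 8 and ZD 9 lay more than 2 log2 units under ZD 3, and PF 6 lay under the other PF arrays. The difference, ZD minus PF, was -0.998 ± 0.46 (adjusted p 0.615), and with ZD 8 and ZD 9 both left out it turned to 0.19. On the 16-day arrays the signals were higher and closer together, at 8.97, 9.36, 9.28 and 9.21 in ZRPF and 8.64, 8.63, 9.000 and 9.42 in ZR.

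**Figure D1:**
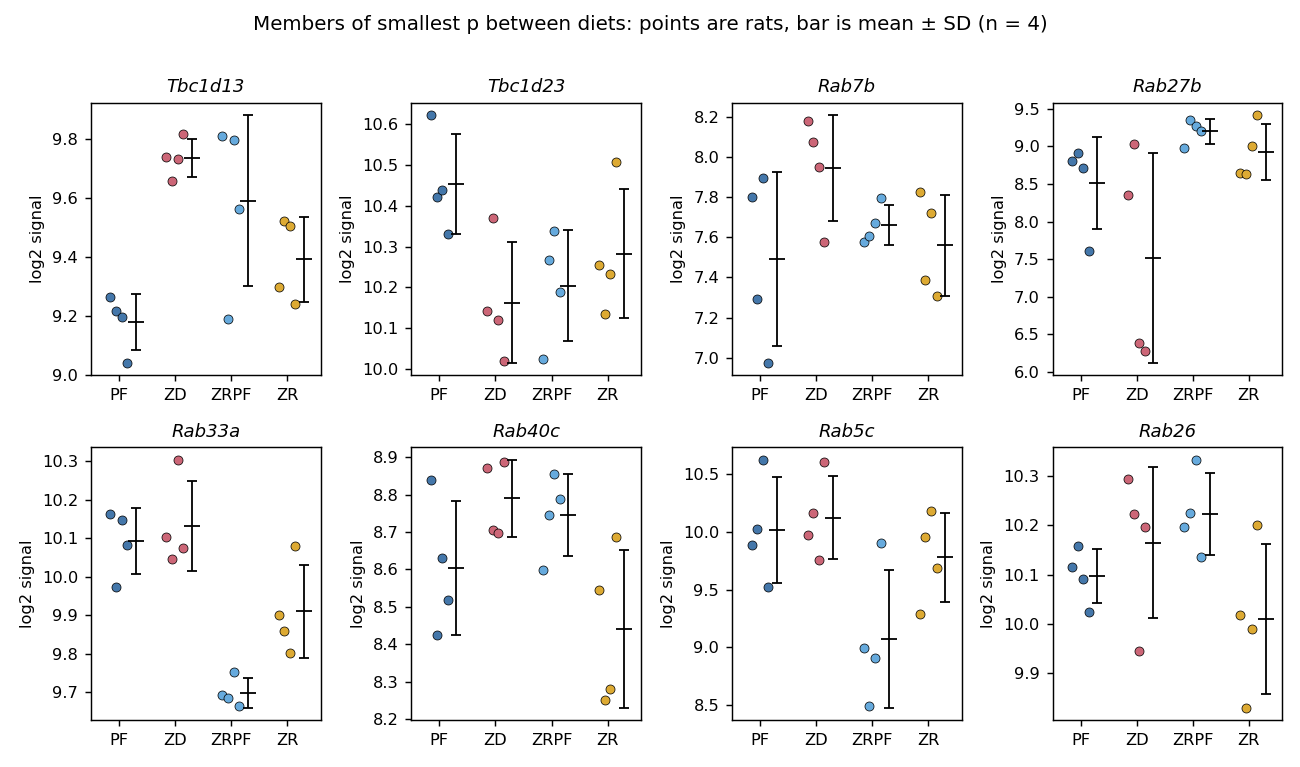
Log2 signal of 8 genes with the smallest p-values in the comparisons between diets, by group on the x axis. Points are rats and bars are the mean ± SD of 4 rats. Tbc1d13 in ZD lay above all PF rats, Rab33a in ZR lay above all ZRPF rats, and Rab27b had 2 low ZD rats.

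Whether earlier deficiency left a difference after zinc was restored is addressed by ZR against ZRPF. None of the 66 genes passed (0.0108% of all 9278 genes did, which is 1 gene), and the median difference was -0.02 over the 66 and -0.01 over all genes. An unadjusted p under 0.05 was reached by 4 of the 66 (6.06%, against 4.81%). The groups did not overlap for 1 gene, *Rab33a* (against 2.82% of all genes).

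*Rab33a*, a Golgi-related Rab of neurons, had log2 signals of 9.69, 9.68, 9.75 and 9.66 in ZRPF and 9.90, 9.86, 9.80 and 10.08 in ZR. Every recovered rat lay above every control. The difference was 0.21 ± 0.08 or 1.16-fold (adjusted p 0.927). On the 10-day arrays it lay at 9.97 to 10.16 among PF rats and at 10.05 to 10.30 among ZD rats. All 16-day rats other than ZR 15 lay below all 10-day rats.

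*Rab40c*, a Rab with a SOCS box that joins a ubiquitin ligase, had 8.60, 8.74, 8.86 and 8.79 in ZRPF and 8.55, 8.25, 8.28 and 8.69 in ZR, a difference of -0.31 ± 0.11. *Rab5c*, an early endosome isoform, had 8.99, 8.49, 8.91 and 9.91 and 9.29, 9.96, 10.18 and 9.69, a difference of 0.71 ± 0.27. Both pairs of groups overlapped, by the highest ZR rat for *Rab40c* and the highest ZRPF rat for *Rab5c*. *Rab26*, which clusters vesicles at synapses, differed by -0.21 ± 0.09, *Rab3a* by 0.16 ± 0.08 and *Tbc1d15*, a GTPase-activating protein for RAB7, by 0.26 ± 0.13. For these 5 genes the adjusted p was 0.927 each.

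The change in the zinc effect between the experiments, (ZR minus ZRPF) minus (ZD minus PF), did not pass for any of the 66 (0% of all genes passed). An unadjusted p under 0.05 was reached by 5 (7.58%, against 6.47%). After *Tbc1d13*, the smallest p-values belonged to *Rab40c* (-0.49 ± 0.16), *Tbc1d23* (0.37 ± 0.14), *Rab26* (-0.28 ± 0.12) and *Rab7b* (-0.55 ± 0.26), with an adjusted p of 0.747 each. *Tbc1d15* came next, at 0.31 ± 0.19 (adjusted p 0.768). Among these genes, *Tbc1d13* and *Rab40c* were higher on average in ZD and lower in ZR, each against its own control. *Tbc1d23* was lower in ZD and higher in ZR. None of these differences passed the threshold. The genes were picked by their p-values for this change, and such a choice favours opposite signs in ZD and ZR. No pattern over the 66 genes can therefore be read from them.

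**Figure D2:**
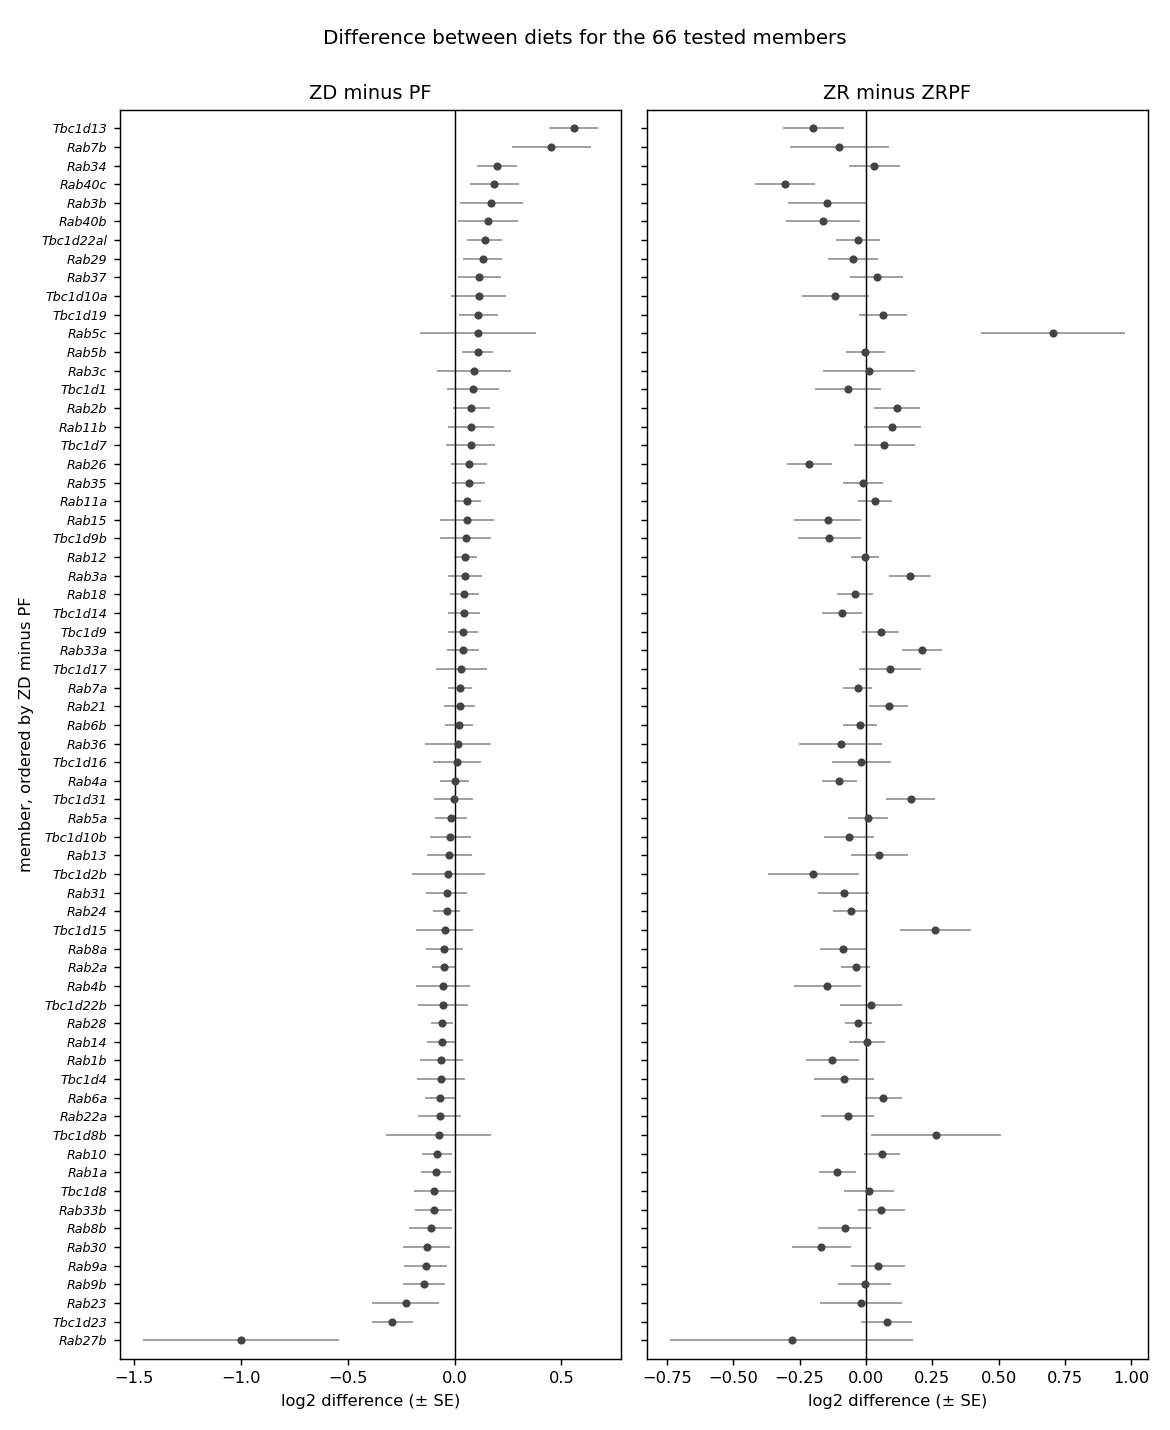
Log2 difference ± SE of each of the 66 tested genes, ZD minus PF at the left and ZR minus ZRPF at the right, in the same order on the y axis. Most genes lie close to 0 in both panels, none passed the threshold, and Tbc1d13 at the top and Rab27b at the bottom stand furthest from 0 in the left panel.

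More Rab and Tbc1d genes passed between the experiments than between the diets. The pair-fed controls of both experiments ate the zinc-sufficient diet throughout, so ZRPF against PF compares 16 with 10 days. In it 17 of 66 genes passed (25.8%, against 15.4% of all genes), 10 higher at 16 days (9.25% of all genes were) and 7 lower (6.13% were). ZR against ZD compares recovered with still deficient rats. Its groups share no array with the first comparison, but both comparisons take their SE from the same estimate of spread over all 16 arrays. In ZR against ZD 15 of 66 passed (22.7%, against 16.6%), 7 higher (8.16% of all genes) and 8 lower (8.42%). Groups did not overlap for 20 of 66 genes in each, against 21.5% of all genes for ZRPF against PF and 19.3% for ZR against ZD. The median difference was 0.02 over the 66 (-0.01 over all genes) in ZRPF against PF and -0.0025 (-0.02 over all genes) in ZR against ZD. The split depends on scaling. With each array's median subtracted, 6 were higher and 13 lower in ZRPF against PF, and 6 higher and 11 lower in ZR against ZD. Centring shifts all genes of an array alike, so the move toward lower is not particular to these genes. Every share of all genes given here is for the signals as deposited, also beside the rescaled splits below.

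Duration, age, the ration and the experiment changed together in both comparisons, and recovery from deficiency came on top in ZR against ZD, so they cannot be told apart. The beta-actin 3′ excess given above separated the same 8 and 8 arrays. That of GAPDH was also higher at 16 days and overlapped only by ZD 9 (0.154) lying above ZRPF 6 (0.146). That of hexokinase did not separate them. Hypothalamic markers separated the experiments too. All 8 tested were higher at 16 days in both comparisons, 4 past the threshold in each. Their summed signal was 24857 to 33998 on the 10-day and 36706 to 44213 on the 16-day arrays. Thalamic markers summed to 18686 to 24746 and 19673 to 25543, with 1 of 7 past the threshold (lower) in ZRPF against PF and none in ZR against ZD. Meningeal and mural markers passed for 4 of 8 in ZR against ZD, all lower, and for none in ZRPF against PF. Ependymal markers passed for 2 of 5 in ZRPF against PF, both higher, with sums of 2375 to 2858 in PF and 3168 to 3394 in ZRPF, and for 1, lower, in ZR against ZD. Of 7 oligodendrocyte markers 1 was higher and 2 lower in ZRPF against PF and 1 lower in ZR against ZD, and of 6 astrocyte markers 1 was higher in each. Of the neuron, microglia, endothelium and blood lists, at most 1 marker passed in either comparison. The part of RNA quality and of tissue makeup in the gene differences below was not tested.

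Of the 66 genes, 12 passed in both comparisons, 70.6% of the 17 and 80% of the 15. Of all genes, 783 passed in both, 54.9% of the 1427 in ZRPF against PF and 50.9% of the 1538 in ZR against ZD. The 12 were higher at 16 days in both comparisons for 6 genes (*Rab3a*, *Rab5b*, *Rab7a*, *Rab11b*, *Tbc1d10b* and *Tbc1d22b*) and lower in both for 5 (*Rab1a*, *Rab8b*, *Rab14*, *Rab18* and *Rab28*). *Tbc1d13* passed in opposite directions.

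**Figure D3:**
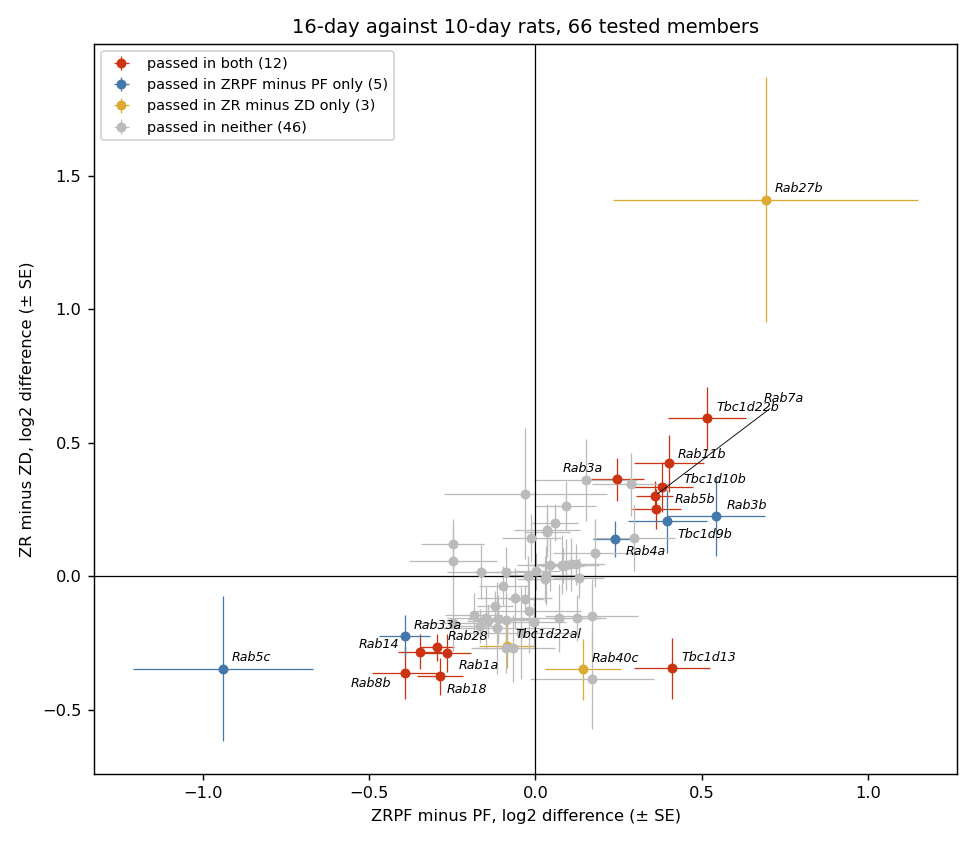
Log2 difference ± SE of the 66 tested genes, ZRPF minus PF on the x axis and ZR minus ZD on the y axis. Colours mark genes that passed in both comparisons (12), in one (5 and 3) or in neither (46). Of the 12, 11 lie in the upper right or lower left quadrant, and Tbc1d13 lies at the lower right.

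Among Rabs of secretory and synaptic vesicles, 2 of 6 tested genes were higher and none lower in each comparison. Of all genes, 9.25% were higher in ZRPF against PF and 8.16% in ZR against ZD. *Rab3a*, the main Rab of synaptic vesicles, had log2 signals of 12.14, 12.15, 12.19 and 12.14 in PF, 12.23, 12.01, 12.24 and 12.32 in ZD, 12.40, 12.50, 12.46 and 12.24 in ZRPF and 12.71, 12.65, 12.53 and 12.37 in ZR. All ZRPF rats lay above all PF rats and all ZR rats above all ZD rats. The differences were 0.25 ± 0.08 in ZRPF against PF (adjusted p 0.0426) and 0.36 ± 0.08 in ZR against ZD (adjusted p 0.00431). The first call depended on scaling and on single arrays: with median centring its adjusted p was 0.197, and it was 0.0634 to 0.107 when any one of PF 1, 2, 4 and 6, ZRPF 2, 4 and 5 was left out.

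*Rab3b*, the isoform known from endocrine cells, was 8.93 ± 0.11 in PF, 9.11 ± 0.25 in ZD, 9.48 ± 0.36 in ZRPF and 9.33 ± 0.11 in ZR. It was higher in ZRPF than in PF by 0.54 ± 0.15 (adjusted p 0.0176), without overlap, and differed by 0.22 ± 0.15 in ZR against ZD (adjusted p 0.315). Without ZRPF 5, its highest array, the difference was 0.38 and the call was lost, as it was without PF 4 (adjusted p 0.0507 to 0.0580). *Rab27b* passed in ZR against ZD (1.41 ± 0.46, adjusted p 0.0413), where the low arrays ZD 8 and ZD 9 carried the difference. Without both it was 0.23, and the call was also lost (adjusted p 0.0584 to 0.148) when any one of ZD 8 and 9, ZR 7, 10, 13 and 15 was left out.

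Among early endosome Rabs, the RAB5 isoforms went different ways. *Rab5b* had log2 signals of 11.03, 11.13, 11.03 and 11.001 in PF, 11.26, 10.98, 11.11 and 11.28 in ZD, 11.39, 11.31, 11.38 and 11.56 in ZRPF and 11.34, 11.32, 11.47 and 11.50 in ZR. The 16-day groups lay above the 10-day groups without overlap, by 0.36 ± 0.07 in ZRPF against PF (adjusted p 0.00258) and 0.25 ± 0.07 in ZR against ZD (adjusted p 0.0241). The second call was lost with median centring (adjusted p 0.0577) and with the mean of the gene's tested probe sets (0.22, adjusted p 0.101). It was also lost when any one of ZD 3 and 8, ZR 13 and 15 was left out (adjusted p 0.0510 to 0.0808). *Rab5c* had 9.89, 10.02, 10.63 and 9.52 in PF and 9.97, 10.17, 9.76 and 10.60 in ZD against the ZRPF and ZR values above. It was lower in ZRPF than in PF by 1.92-fold (-0.94 ± 0.27, adjusted p 0.0242), with 1 ZRPF rat inside the PF range, and differed by -0.35 ± 0.27 in ZR against ZD (adjusted p 0.409). Without any one of PF 2 and 4, ZRPF 2, 4 and 5 the ZRPF against PF difference was -0.94 to -0.74 and no longer passed (adjusted p 0.0537 to 0.0824). *Rab5a*, the isoform most used as an early endosome label, lay at 12.14 to 12.41 among PF rats, 12.21 to 12.33 among ZD rats, 12.10 to 12.45 among ZRPF rats and 12.20 to 12.35 among ZR rats, with differences of -0.02 ± 0.07 and 0.001 ± 0.07, neither past the threshold.

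Among late endosome and lysosome Rabs, 1 of 7 tested genes passed in each comparison, *Rab7a*, as higher. Of all genes, 9.25% were higher in ZRPF against PF and 8.16% in ZR against ZD. *Rab29* differed by -0.27 ± 0.09 in ZR against ZD (adjusted p 0.0535). With median centring or quantile normalization it passed there too, as lower. *Rab7a*, which drives late endosomes to lysosomes, had 11.81, 11.61, 11.70 and 11.68 in PF, 11.77, 11.75, 11.70 and 11.69 in ZD, 11.97, 12.09, 12.14 and 12.04 in ZRPF and 11.999, 12.03, 11.99 and 12.09 in ZR. No 10-day rat reached the lowest 16-day rat. The differences were 0.36 ± 0.06 or 1.28-fold (adjusted p 0.000272) in ZRPF against PF and 0.30 ± 0.06 or 1.23-fold (adjusted p 0.00124) in ZR against ZD. The first has the smallest p of all 66 genes in that comparison.

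Among recycling Rabs, 2 of 7 were higher and 1 lower in ZRPF against PF, and 1 higher and 1 lower in ZR against ZD. Of all genes, 9.25% were higher and 6.13% lower in the first comparison, and 8.16% and 8.42% in the second. With median centring the first split was 1 higher and 2 lower. *Rab11b*, of the slow recycling route, had 11.31, 11.20, 11.22 and 11.27 in PF, 11.43, 11.24, 11.28 and 11.36 in ZD, 11.68, 11.90, 11.37 and 11.65 in ZRPF and 12.07, 11.68, 11.73 and 11.52 in ZR, and was higher at 16 days by 0.40 ± 0.11 (adjusted p 0.0150) and 0.42 ± 0.11 (adjusted p 0.0101). Its groups overlapped in neither comparison. Without ZRPF 4, its highest control array, the first difference was 0.32 with an adjusted p of 0.0507. *Rab11a*, its close paralog, went from 11.38 ± 0.05 in PF to 11.24 ± 0.11 in ZRPF and from 11.44 ± 0.08 in ZD to 11.27 ± 0.07 in ZR. Its groups did not overlap, and its differences of -0.14 ± 0.06 (adjusted p 0.138) and -0.17 ± 0.06 (adjusted p 0.0765) did not pass. With median centring *Rab11a* passed in ZRPF against PF, as lower.

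*Rab4a*, of the fast recycling route, was higher in ZRPF than in PF (0.24 ± 0.07, adjusted p 0.0198) and differed by 0.14 ± 0.07 in ZR against ZD (adjusted p 0.159). Its call was lost with median centring (adjusted p 0.143) and without any one of PF 2, ZRPF 2 and 6 (adjusted p 0.0540 to 0.0691). *Rab14*, which links the Golgi with endosomes, had 12.01, 12.09, 11.92 and 11.92 in PF, 11.98, 12.06, 11.83 and 11.83 in ZD, 11.72, 11.58, 11.63 and 11.62 in ZRPF and 11.59, 11.77, 11.56 and 11.65 in ZR. All 16-day rats were lower than all 10-day rats, with differences of -0.35 ± 0.07 (adjusted p 0.00166) and -0.28 ± 0.07 (adjusted p 0.00692). *Rab35*, the Rab on which TBC1D13 is described to act, lay at 8.99 to 9.18 among PF rats, 9.10 to 9.29 among ZD rats, 9.17 to 9.29 among ZRPF rats and 9.16 to 9.28 among ZR rats, and did not pass in any comparison.

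Among Rabs of the endoplasmic reticulum and Golgi, no gene was higher in either comparison. In ZRPF against PF 3 of 11 were lower (6.13% of all genes were), and in ZR against ZD 2 (8.42% of all genes). With median centring 6 and 4 were lower, and with quantile normalization 4 and 3 were, with *Rab6a* higher in ZR against ZD. Shares of all genes under these scalings are not given here. *Rab18*, of the endoplasmic reticulum and lipid droplets, had 11.11, 11.09, 11.22 and 11.14 in PF, 11.03, 11.24, 11.31 and 11.18 in ZD, 10.71, 10.85, 10.91 and 10.94 in ZRPF and 10.86, 10.74, 10.88 and 10.77 in ZR. The 16-day rats were all lower than the 10-day rats, with differences of -0.29 ± 0.07 (adjusted p 0.00809) and -0.37 ± 0.07 (adjusted p 0.00122). *Rab1a*, which acts in transport from the endoplasmic reticulum to the Golgi, had 13.23, 13.06, 13.18 and 13.29 in PF, 13.12, 13.23, 13.07 and 13.01 in ZD, 12.85, 12.93, 13.03 and 12.90 in ZRPF and 12.90, 12.87, 12.63 and 12.88 in ZR. It was lower at 16 days, with differences of -0.26 ± 0.07 (adjusted p 0.0160) and -0.29 ± 0.07 (adjusted p 0.00911), without overlap, and the first call was lost without PF 6 or without ZRPF 2 (adjusted p 0.0516 to 0.0551).

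*Rab33a* was lower in ZRPF than in PF, with a difference of -0.39 ± 0.08 (adjusted p 0.00185), without overlap, and differed by -0.22 ± 0.08 in ZR against ZD (adjusted p 0.0527). Beside *Rab1a*, the other bright Rabs of the list did not pass: *Rab2a* differed by -0.12 ± 0.05 and -0.11 ± 0.05, *Rab6a* by 0.03 ± 0.07 and 0.17 ± 0.07, and *Rab6b* by 0.08 ± 0.06 and 0.04 ± 0.06. For *Rab2a* the ZRPF rats all lay below the PF rats, and with median centring or quantile normalization it passed in ZRPF against PF.

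Among Rabs of transport from the Golgi to the plasma membrane and cilium, 2 of 7 were lower in each comparison and none higher. Of all genes, 6.13% were lower in ZRPF against PF and 8.42% in ZR against ZD. With quantile normalization *Rab10* was also higher in ZR against ZD. *Rab13* differed by -0.25 ± 0.11 in ZRPF against PF (adjusted p 0.120), without overlap. With median centring or quantile normalization it passed there, as lower. *Rab28*, known from cilia and photoreceptors, had 12.18, 12.08, 12.05 and 12.18 in PF, 12.07, 12.02, 12.06 and 12.11 in ZD, 11.80, 11.81, 11.88 and 11.82 in ZRPF and 11.74, 11.80, 11.79 and 11.86 in ZR. The highest 16-day rat lay below the lowest 10-day rat, and the differences were -0.30 ± 0.05 (adjusted p 0.000656) and -0.27 ± 0.05 (adjusted p 0.00173). *Rab8b* had 10.03, 10.20, 10.22 and 10.10 in PF, 10.13, 10.20, 10.12 and 9.67 in ZD, 9.70, 9.88, 9.67 and 9.74 in ZRPF and 9.58, 9.80, 9.70 and 9.58 in ZR. It was lower at 16 days, with differences of -0.39 ± 0.10 (adjusted p 0.0120) and -0.36 ± 0.10 (adjusted p 0.0183), and in ZD the array ZD 9 lay among the 16-day values. The second call was lost without any one of ZD 2 and 3, ZR 7 and 15 (adjusted p 0.0523 to 0.0591). Its paralog *Rab8a* differed by 0.03 ± 0.09 and -0.01 ± 0.09, and *Rab10*, of exocytic transport in axons, by 0.06 ± 0.07 and 0.20 ± 0.07 (adjusted p 0.0525 for the latter). *Rab40c* of the *Rab40* family was lower in ZR than in ZD (-0.35 ± 0.11, adjusted p 0.0427), without overlap, and differed by 0.14 ± 0.11 in ZRPF against PF. Its call was lost without any one of PF 4, ZD 2, 3 and 9, ZRPF 6, ZR 7, 10 and 13 (adjusted p 0.0502 to 0.129).

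**Figure D4:**
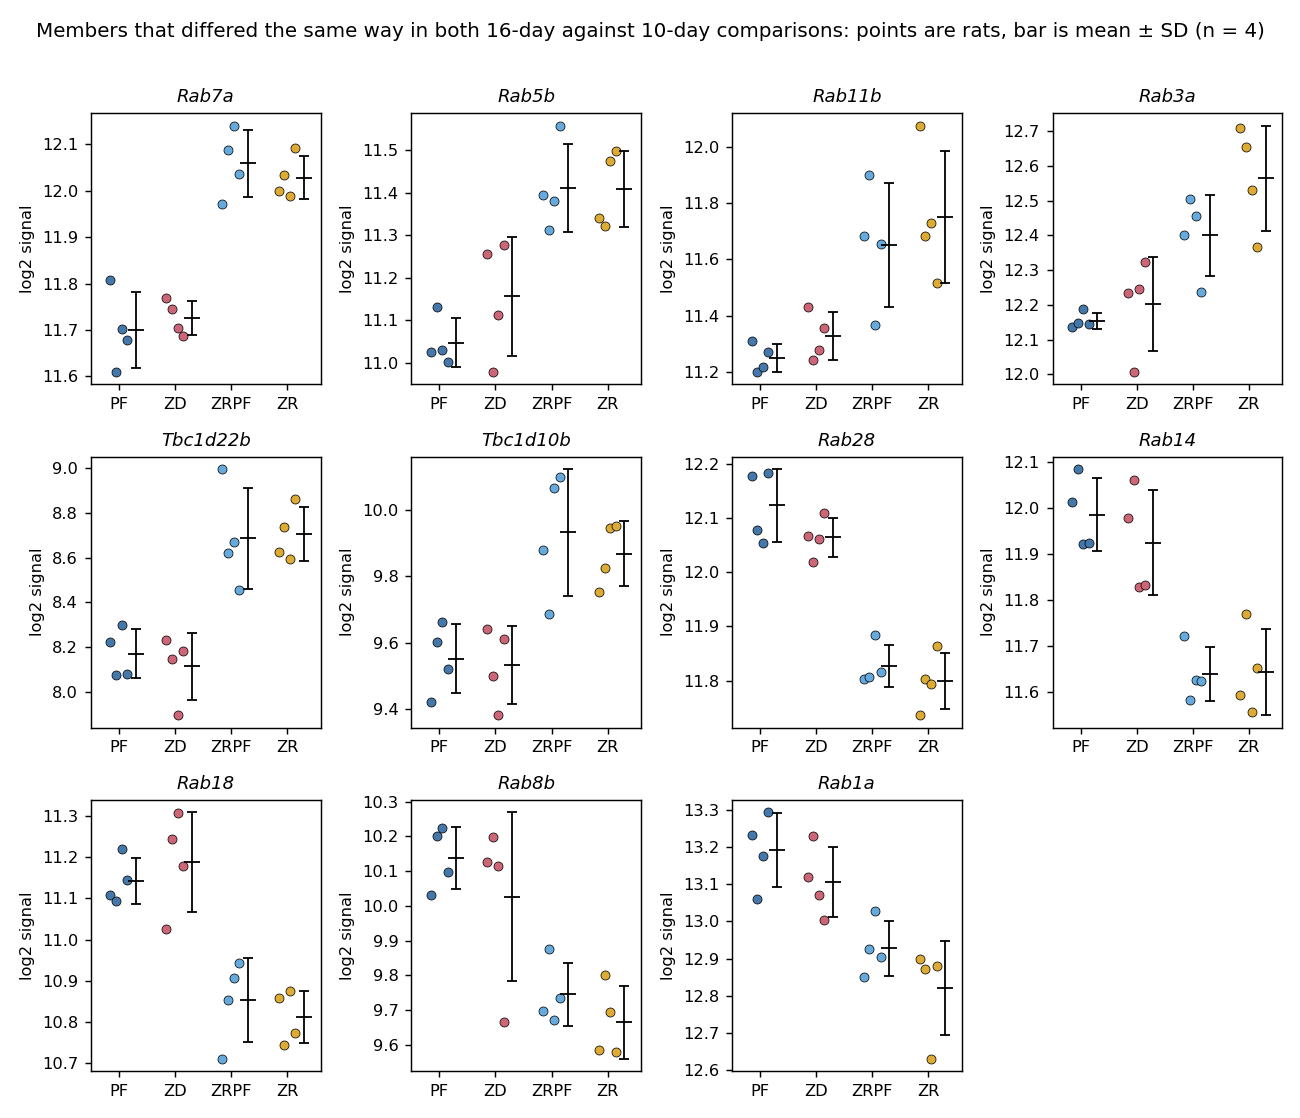
Log2 signal of the 11 genes that passed in the same direction in ZRPF against PF and in ZR against ZD, by group on the x axis. Points are rats and bars are the mean ± SD of 4 rats. In 10 panels the 16-day groups (ZRPF, ZR) do not overlap the 10-day group they were compared with, and in the Rab8b panel 1 ZD rat lies among the 16-day values.

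Of the 20 tested Tbc1d genes, 4 were higher and none lower in ZRPF against PF, and 2 were higher and 2 lower in ZR against ZD. That is 20% in each, against 15.4% and 16.6% of all genes. *Tbc1d22b* had 8.22, 8.08, 8.30 and 8.08 in PF, 8.23, 8.15, 7.90 and 8.18 in ZD, 8.997, 8.62, 8.67 and 8.46 in ZRPF and 8.63, 8.74, 8.60 and 8.86 in ZR. No 10-day rat reached the lowest 16-day rat, and the differences were 0.52 ± 0.12 or 1.43-fold (adjusted p 0.00574) and 0.59 ± 0.12 or 1.51-fold (adjusted p 0.00215). *Tbc1d10b*, a GTPase-activating protein of the EPI64 family that acts on RAB27 and RAB35, had 9.42, 9.60, 9.66 and 9.52 in PF, 9.64, 9.50, 9.38 and 9.61 in ZD, 9.88, 9.69, 10.06 and 10.10 in ZRPF and 9.75, 9.82, 9.95 and 9.95 in ZR. It was higher by 0.38 ± 0.09 (adjusted p 0.0103) and 0.34 ± 0.09 (adjusted p 0.0199), and the second call was lost without any one of ZD 8, ZR 13 and 15 (adjusted p 0.0542 to 0.0573).

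*Tbc1d9b*, described to act on RAB11, was higher in ZRPF than in PF (0.40 ± 0.12, adjusted p 0.0302) and differed by 0.21 ± 0.12 in ZR against ZD (adjusted p 0.251). Its call was lost with median centring (adjusted p 0.0733) and without any one of PF 1, 2 and 6, ZRPF 5 and 6 (adjusted p 0.0544 to 0.105). *Tbc1d22al* was lower in ZR than in ZD (-0.26 ± 0.08, adjusted p 0.0367), without overlap, and this call was lost without any one of ZD 2 and 9, ZR 7 and 10 (adjusted p 0.0880 to 0.121). *Tbc1d13* was higher in ZRPF than in PF (0.41 ± 0.11, adjusted p 0.0207) and lower in ZR than in ZD (-0.34 ± 0.11, adjusted p 0.0456). Of the 4 groups PF was the lowest and ZD the highest. The difference between these 2 contrasts is the -0.76 ± 0.16 given above, which did not pass over all arrays. The ZRPF against PF call was lost with median centring (adjusted p 0.0668) and without any one of PF 6, ZRPF 2 and 5 (adjusted p 0.0626 to 0.0720), and the ZR against ZD call without any one of PF 1, 2 and 4, ZD 2, 3, 8 and 9, ZRPF 6, ZR 7 and 15 (adjusted p 0.0535 to 0.123).

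The TBC1D proteins best known from metabolism did not pass in any comparison. *Tbc1d1* and *Tbc1d4* encode the insulin- and AMPK-regulated brakes on glucose transporter vesicles, and *Tbc1d7* a subunit of the tuberous sclerosis complex. *Tbc1d1* was 8.42 ± 0.22 in PF, 8.50 ± 0.16 in ZD, 8.71 ± 0.21 in ZRPF and 8.65 ± 0.09 in ZR. *Tbc1d4* was 9.66 ± 0.06, 9.60 ± 0.31, 9.60 ± 0.10 and 9.51 ± 0.08 in the same order, and *Tbc1d7* 7.84 ± 0.07, 7.92 ± 0.14, 7.69 ± 0.13 and 7.76 ± 0.19. The largest of their differences was that of *Tbc1d1* in ZRPF against PF, 0.30 ± 0.12 (adjusted p 0.112).

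For 5 genes that passed in ZRPF against PF and missed the threshold in ZR against ZD, the difference between the comparisons was itself tested and did not pass: *Rab3b* -0.32 ± 0.21, *Rab4a* -0.10 ± 0.09, *Rab5c* 0.59 ± 0.38, *Rab33a* 0.17 ± 0.11 and *Tbc1d9b* -0.19 ± 0.17, with adjusted p-values from 0.775 to 0.840. The same holds for the 3 that passed in ZR against ZD alone, *Rab27b* (0.72 ± 0.65), *Tbc1d22al* (-0.17 ± 0.12) and *Rab40c* (-0.49 ± 0.16). For none of these 8 genes was a difference between the experiments' comparisons shown.

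Several genes had further probe sets on the array. Of the genes that passed in ZRPF against PF, 6 had a further tested probe set, 9 in all. In ZRPF against PF 9 of these 9 had the same sign as the gene's brightest probe set and 5 passed. In ZR against ZD 7 of 9 had the same sign and 2 passed. For *Rab3a* the further probe set gave 0.73 ± 0.20 (adjusted p 0.0189) and 0.67 ± 0.20 (adjusted p 0.0273), larger than the brightest. For *Rab8b* it gave -0.44 ± 0.10 (adjusted p 0.00484) and -0.23 ± 0.10 (adjusted p 0.122). For *Rab5b* it gave 0.54 ± 0.13 (adjusted p 0.00710) and 0.18 ± 0.13 (adjusted p 0.335). For *Rab11b* it passed in neither comparison, at 0.24 ± 0.15 (adjusted p 0.277) and 0.26 ± 0.15 (adjusted p 0.227).

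For *Rab7a* and *Rab14* the probe sets differed in sign in ZR against ZD. The further *Rab7a* probe set gave 0.13 ± 0.12 in ZRPF against PF and -0.03 ± 0.12 in ZR against ZD, neither past the threshold, and the mean of both *Rab7a* probe sets gave 0.14 in ZR against ZD (adjusted p 0.213). The 4 further *Rab14* probe sets gave -0.37 ± 0.10, -0.27 ± 0.17, -0.39 ± 0.11 and -0.38 ± 0.20 in ZRPF against PF. In ZR against ZD they gave -0.04 ± 0.10, -0.19 ± 0.17, -0.38 ± 0.11 and 0.47 ± 0.20, the last with the opposite sign, and the mean over the gene's 5 probe sets was -0.09 (adjusted p 0.434). In the other direction, 3 genes whose brightest probe set did not pass had a further one that did, chosen here after their values were seen: *Rab12* (-0.40 ± 0.13 and -0.67 ± 0.13), *Rab2a* (-0.23 ± 0.07 and -0.19 ± 0.07), and *Rab22a* in ZR against ZD (0.47 ± 0.15). *Tbc1d13*, *Rab1a*, *Rab5c*, *Rab18*, *Rab28* and *Rab33a* have 1 probe set each under the rule, so no such comparison could be made for them.

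**Figure D5:**
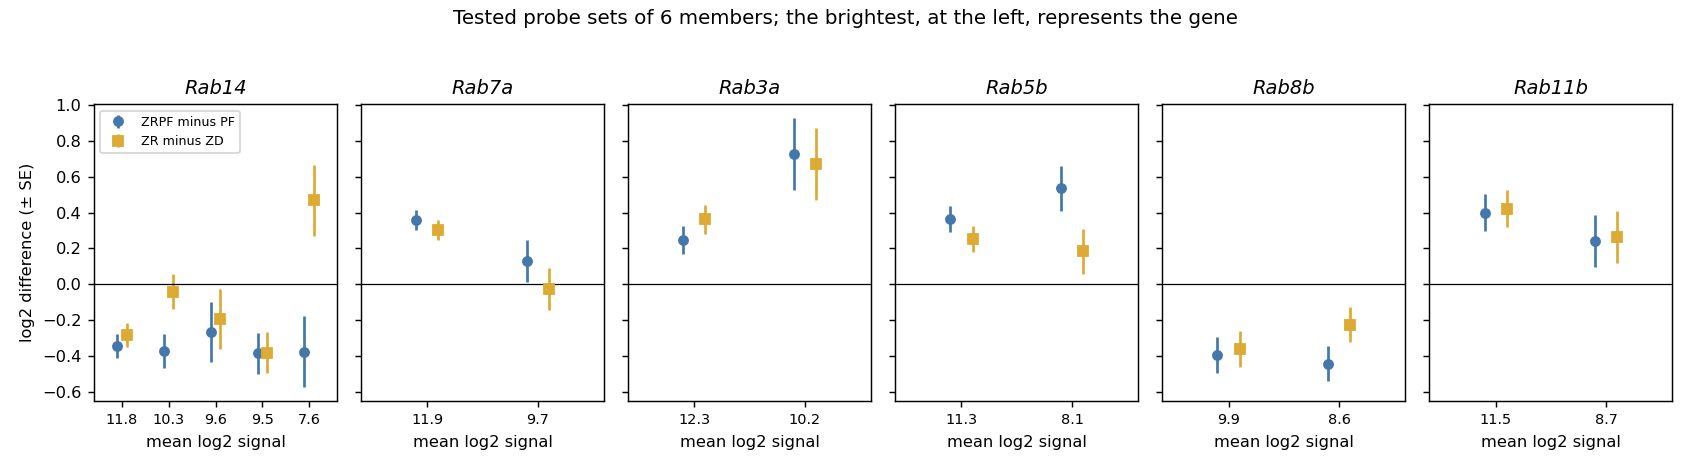
Log2 difference ± SE of every tested probe set of 6 genes, ZRPF minus PF as circles and ZR minus ZD as squares, with the probe set's mean log2 signal on the x axis. All circles lie on the same side of 0 as the brightest probe set at the left, and the squares of 1 Rab7a and 1 Rab14 probe set do not.

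Promoters are shown for 3 genes that the results turn on: *Rab7a*, with the smallest p of the 66 in ZRPF against PF, *Rab18*, with the smallest in ZR against ZD, and *Tbc1d13*, with the smallest in ZD against PF. RefSeq's promoter table (GRCr8) held 67 of the 82 genes, each with 300 bases, from 250 before to 50 after the start of the gene, written 5′ to 3′ on the gene's strand. Capitals mark matches on either strand to the core of the metal response element bound by the zinc sensor MTF1 (TGCGCNC or TGCACNC) and to the E-box CACGTG of lysosomal genes. The cyclic AMP response element TGACGTCA was searched too and is in none of the 3.
*Rab7a*, chr4:122064136-122064435, minus strand: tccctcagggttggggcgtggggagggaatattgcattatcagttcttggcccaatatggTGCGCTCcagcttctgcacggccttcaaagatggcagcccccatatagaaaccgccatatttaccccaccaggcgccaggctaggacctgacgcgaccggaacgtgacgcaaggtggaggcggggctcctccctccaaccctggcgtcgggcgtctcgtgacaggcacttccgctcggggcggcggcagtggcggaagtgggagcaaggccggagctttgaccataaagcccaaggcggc
*Rab18*, chr17:59639014-59639313, plus strand: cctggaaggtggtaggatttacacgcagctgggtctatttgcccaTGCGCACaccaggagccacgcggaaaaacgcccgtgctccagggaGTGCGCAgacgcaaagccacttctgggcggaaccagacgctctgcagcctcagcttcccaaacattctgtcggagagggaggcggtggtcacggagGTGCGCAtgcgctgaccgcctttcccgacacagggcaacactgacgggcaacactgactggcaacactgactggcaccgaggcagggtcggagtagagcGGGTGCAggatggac
*Tbc1d13*, chr3:33806522-33806821, plus strand: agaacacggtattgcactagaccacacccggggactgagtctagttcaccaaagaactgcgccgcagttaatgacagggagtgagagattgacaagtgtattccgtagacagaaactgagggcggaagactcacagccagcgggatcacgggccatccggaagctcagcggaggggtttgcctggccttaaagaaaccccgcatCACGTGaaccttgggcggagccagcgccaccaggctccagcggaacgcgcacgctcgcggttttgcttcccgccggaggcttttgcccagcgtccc
*Rab7a* holds 1 TGCGCNC, *Rab18* holds 3 TGCGCNC and 1 TGCACNC, and *Tbc1d13* holds 1 CACGTG and neither metal response core. Of all 27457 promoters of the table, TGCGCNC is in 4125 (15.02%), TGCACNC in 3341 (12.2%) and either in 6864 (24.999%). CACGTG is in 1826 (6.65%) and TGACGTCA in 525 (1.91%). Of the 67 promoters of Rab and Tbc1d genes, 25 (37.3%) hold either metal response core. Of the same 67, 7 (10.4%) hold the E-box and 2 (2.99%) the cyclic AMP element. Of the 6 genes that were higher in both comparisons, 2 hold either core, as do 2 of the 5 that were lower. These are matches of letters in a window and say nothing of binding.

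Other genes of the Rab cycle were counted from lists of regulators and partners. None of their tested members passed in ZD against PF, in ZR against ZRPF or in the change of the zinc effect. Of TBC-domain genes with other names, 3 of 7 tested were higher in each 16-day against 10-day comparison and none lower, against the 9.25% and 8.16% of all genes that were higher. These were *Sgsm2*, at 1.03 ± 0.14 in ZRPF against PF and 0.58 ± 0.14 in ZR against ZD, *Evi5l*, at 0.60 ± 0.08 and 0.38 ± 0.08, and *Rabgap1*, at 0.32 ± 0.06 and 0.28 ± 0.06. Their adjusted p-values ran from 0.000106 to 0.00930. With the Tbc1d genes, 7 of 27 tested TBC-domain genes were higher and none lower in ZRPF against PF, and 5 were higher and 2 lower in ZR against ZD, 25.9% in each against 15.4% and 16.6% of all genes. With median centring the first split was 5 higher and 2 lower, with *Tbc1d9b* and *Tbc1d13* no longer passing and *Tbc1d23* and *Evi5* lower.

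Of 30 tested exchange factor genes, 3 were higher and 3 lower in ZRPF against PF (20%, against 15.4% of all genes), and 1 was lower in ZR against ZD (3.33%, against 16.6%). With median centring the first split was 1 higher and 6 lower, and with quantile normalization 1 and 2. The lower ones were subunits of TRAPP, the complex that activates RAB1: *Trappc5* (-0.37 ± 0.09), *Trappc10* (-0.29 ± 0.07) and *Trappc3* (-0.20 ± 0.06, and -0.32 ± 0.06 in ZR against ZD). The higher ones were *Trappc9* (0.42 ± 0.11), a subunit of the same complex, *Dennd2b* (0.38 ± 0.11) and *Mon1a* (0.36 ± 0.11), part of the exchange factor for RAB7. Of 4 tested genes for prenylation, escort and GDI none passed in either comparison, the smallest adjusted p being that of *Rabac1* in ZRPF against PF (0.17 ± 0.07, adjusted p 0.0903).

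Of 32 tested effector genes, 3 were higher and 3 lower in ZRPF against PF, and 4 higher and 2 lower in ZR against ZD (18.75% in each, against 15.4% and 16.6% of all genes). With median centring these splits were 3 higher and 6 lower, and 2 and 2. *Myo5a*, the actin motor that carries RAB27 and RAB11 cargo, was higher by 1.22 ± 0.16 (adjusted p 4.37e-05) and 1.34 ± 0.16 (adjusted p 1.73e-05). *Rabgap1*, which stands in the effector list too, was the other gene higher in both. *Osbpl1a*, a RAB7 partner, was lower in both (-0.19 ± 0.06 and -0.23 ± 0.06). The others passed in one comparison: *Rab11fip4* (0.35 ± 0.08), *Appl1* (-0.32 ± 0.09) and *Sytl2* (-0.42 ± 0.13) in ZRPF against PF, and *Rab11fip3* (0.31 ± 0.10), *Vps39* (-0.32 ± 0.09) and *Myrip* (0.29 ± 0.09) in ZR against ZD.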

How the data were processed

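Each rat's array was deposited as a linear signal intensity for every probe set, which the authors had computed with MAS5, per the submitters' processing notes (its version and the array's detection calls were not given in the sources used here). RNA came from single diencephalons and was amplified by a 3′-primed kit, per the labels' protocols, so signals weigh the 3′ ends of transcripts. The authors' scaling left a trimmed mean signal (2% trimmed at each end) of 500.1 on all arrays, and nothing further was done to scale them. Controls (57 of the 31099 probe sets) took no part in the fit. Genes were named from the platform annotation (20826 probe sets with a single gene, 436 with several, 9780 with none, the last 2 kinds tested and not named). All 82 genes described here matched RefSeq's gene table by gene ID. The Rab and Tbc1d genes, their role lists and the markers were chosen with earlier results of these data known.

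Log2 signals of 15521 probe sets with a mean log2 signal of at least 7.35 (a signal of 163) were fitted with limma 3.58.1 in R 4.3.3, the 4 groups together, with an intensity trend. Tests were two-sided and adjusted by Benjamini-Hochberg over all 15521, with a threshold of 0.05. Shares of all genes were taken over 9278 genes, each by its brightest tested probe set. Errors of differences are SE from the fit and errors of means are SD over 4 rats. That number of arrays limits the precision of every value. The fit was tested on simulated data with known changes in ZRPF against PF. It recovered 44 of 67 changes of 0.5 log2 units, 62 of 67 of 1 unit and 65 of 66 of 2 units. Of its 184 calls, 13 were false. Genes named were those past the threshold (up to 12 in each direction), the next smallest p-values up to 6 in a comparison, those whose diet groups did not overlap, the brightest 5 and the dimmest 3, and a fixed set of well-studied Rab and Tbc1d genes.

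Alternatives were median centring or quantile normalization of the arrays, a fit without the filter or on the 10348 brightest probe sets, 32 added to each signal, weighted arrays, a fit without the trend, only the arrays compared, the mean of a gene's tested probe sets, ZD 8 and ZD 9 left out together, each array left out in turn, and rat numbers as a block.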

Additional observations from a re-analysis of the deposited data

Results flagged for a closer look

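Within the groups of 4 rats, 1 rat stood apart from the others of its group for 5 of the 25 named genes, in 5 of 100 groups examined. Such a rat lay further from the nearest other rat, relative to the group's range, than the 95% critical value of Dixon's test for 4 values, which chance alone exceeds in about 1 of 20 groups. The array ZR 13 had a *Rab1a* log2 signal of 12.63 against 12.87 to 12.90 in the other ZR rats. PF 6 had 7.60 for *Rab27b* against 8.71 to 8.92 in the other PF rats. ZRPF 5 had 11.88 for *Rab28* against 11.80 to 11.82, and 9.62 for *Tbc1d22al* against 9.39 to 9.41. ZD 9 had 9.67 for *Rab8b* against 10.12 to 10.20 in the other ZD rats.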

How the results depend on the processing

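Of 50 comparisons of single genes named above, 28 kept their direction and their side of the threshold under every alternative that could be run for them, 25 to 28 of 28. Over the 1328 values that this gives for the 50, a call was lost in 114, gained in 1 and reversed in sign in 1, *Rab27b* in ZD against PF, which turned to 0.19 with ZD 8 and ZD 9 both left out. Of the 50, only 32 had passed in the main fit, and the others had no call to lose. In ZRPF against PF the calls of *Rab7a*, *Rab5b*, *Rab28*, *Rab14*, *Rab33a*, *Rab18* and *Rab8b* were kept in every alternative. In ZR against ZD those of *Tbc1d22b*, *Rab3a*, *Rab18*, *Rab28* and *Rab1a* were. Every other call was lost under some alternative. No gene passed in ZD against PF or in ZR against ZRPF under any alternative. The cause of the changes below was not tested unless the alternative itself gives it.

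Median centring moved the median difference to -0.0256 in ZD against PF, 0.0321 in the change of the zinc effect, -0.0686 in ZRPF against PF and -0.0282 in ZR against ZD, and quantile normalization moved the last to -0.0193. The mean of tested probe sets gave medians of -0.0018, -0.0163 and -0.0354 in ZD against PF, ZRPF against PF and ZR against ZD. Leaving out ZD 8 and ZD 9 gave a median of -0.0557 in ZR against ZD. Genes without overlap rose from 1 to 2 in ZD against PF with median centring and from 1 to 2 in ZR against ZRPF with the mean of probe sets, and to 13 in ZD against PF and 34 in ZR against ZD without ZD 8 and ZD 9, where only 2 arrays had to be separated. With single arrays left out they numbered 1 to 6 in ZD against PF (2 or more without any PF array, ZD 3, ZD 8 or ZD 9), 1 to 5 in ZR against ZRPF (2 or more without any ZRPF array, ZR 13 or ZR 15), and 20 to 27 in each comparison between experiments. Genes that passed then numbered 12 to 17 in ZRPF against PF, 10 to 18 in ZR against ZD and 0 to 1 in the change of the zinc effect, where *Tbc1d13* passed without ZRPF 4. Medians ran from 0.00043 to 0.0270 in ZD against PF, -0.0323 to -0.0155 in ZR against ZRPF, -0.0388 to -0.0023 in the change of the zinc effect, 0.00042 to 0.0363 in ZRPF against PF and -0.0386 to -0.0025 in ZR against ZD.

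PF and ZRPF share the rat numbers 2, 4 and 6, and no other groups compared share more than 1. Deviations of same-numbered rats correlated at 0.0198 to 0.0789, so the numbers were not taken as pairs. A replicate block on these 6 arrays called 8 genes in ZRPF against PF, and the same 6 arrays without the block, an alternative chosen after seeing the data, called 9, against 17 with all arrays. Only 4 rats stand in each group, and probe sets under the filter were not tested.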
